A study of Mus musculus with 9 samples.

Results

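The 10 genes Tyrobp, Hcst, Syk, Plcg2, Inpp5d, Vav1, Vav3, Grb2, Pik3cd and Card9 encode the adaptors that carry signals from the microglial receptor TREM2 and the enzymes and adaptors that act after them. They were listed by name for their place in the pathway, with no expression threshold, and each was represented by its 1 probe set annotated to that gene alone, out of 19938 genes with such a probe set. Expression was measured with 1 microarray per mouse in microglia, macrophages that reside in the brain, obtained by sorting CD45+ CD11b+ cells of 9 mice aged 8.5 months. Every animal was a 5XFAD mouse, a model in which mutant human transgenes produce amyloid plaques, and every animal was deficient in mouse TREM2. R47H mice expressed the R47H form of human TREM2, which is associated with Alzheimer's disease, CV mice expressed its common variant, and KO mice expressed no human TREM2. Each genotype had 3 mice, of which mouse 1 was female and mice 2 and 3 were male. The sources used here give neither the promoter of the human TREM2 transgenes nor the number of transgenic lines.

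TREM2 has almost no signalling tail of its own and depends on Tyrobp, also called DAP12, a small membrane adaptor with an immunoreceptor tyrosine-based activation motif (ITAM). Src family kinases phosphorylate the ITAM, the kinase Syk docks there, and Syk activates phospholipase C gamma, phosphoinositide 3-kinase (PI3K), Vav exchange factors and the Card9 complex. Hcst, or DAP10, joins some of the same receptors and recruits PI3K and Grb2, while the phosphatase Inpp5d removes the lipid product of PI3K. In microglia this route supports survival, phagocytosis and the response to amyloid plaques.

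None of the 9 genes that could be tested was called as differing between any pair of genotypes. Vav3 lay below the level required for testing, a mean log2 value of 5.31, the midpoint of the ranked probe sets. With a call defined as a Benjamini-Hochberg adjusted p under 0.05 in limma over 10795 genes, 0 of 9 were called in R47H minus CV, where 0.797% of all genes were called. The count was 0 of 9 in R47H minus KO, where 0.0834% of all genes were called, and 0 of 9 in CV minus KO, where 1.21% were. With shares this low over all genes, a count of 0 of 9 is near the background. At an unadjusted p under 0.05 limma gave 0 of 9 in R47H minus CV (12.4% of all genes), 0 of 9 in R47H minus KO (5.68%) and 1 of 9, Inpp5d, in CV minus KO (13.2%). The values of the compared groups did not overlap for 0 of 9 in R47H minus CV (14.9% of all genes), 0 of 9 in R47H minus KO (7.11%) and 1 of 9, again Inpp5d, in CV minus KO (14.0%).

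The intervals of the differences were wider than a typical difference over all tested genes. The median absolute difference of all tested genes was 0.09 in R47H minus CV, 0.07 in R47H minus KO and 0.09 in CV minus KO. Over the 9 tested genes the 95% intervals lay between -0.35 and 0.32 in R47H minus CV on the log2 scale, between -0.29 and 0.38 in R47H minus KO, and between -0.35 and 0.38 in CV minus KO. In fold terms the bounds were 0.785 and 1.25, 0.818 and 1.3, and 0.785 and 1.3. The median difference was 0.00 in R47H minus CV, -0.06 in R47H minus KO and -0.04 in CV minus KO, against medians over all tested genes of 0.01, 0.00 and -0.02. Differences above 0 numbered 5 of 9, 3 of 9 and 3 of 9 in the same order, where 53.4%, 49.6% and 44.9% of all genes lay above 0. A p that misses the threshold does not show that genotypes were equal. These bounds are the extremes over the 9 genes. With 3 mice a group, differences inside a gene's own interval are not excluded.

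**Figure D1:**
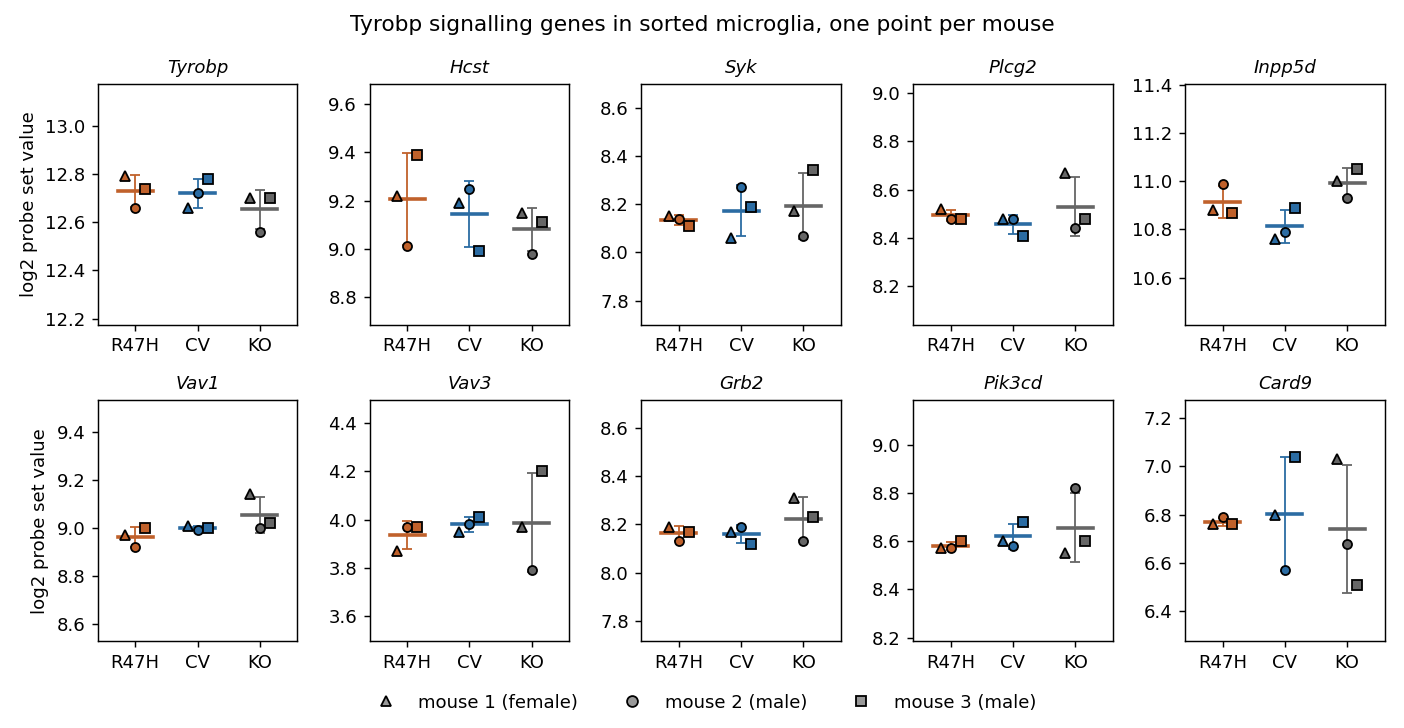
Log2 probe set values of the 10 genes, one panel per gene, each spanning 1 log2 unit, with genotype on the horizontal axis; points are mice (triangles female, circles and squares male), bars are means and error bars SD (n = 3). In every panel but that of Inpp5d the values of each pair of genotypes overlap, and in that panel the CV mice, at 10.76 to 10.89, lie below the KO mice, at 10.93 to 11.05.

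The adaptor Tyrobp (probe set 10551883) is encoded on chromosome 7 at 30413782 to 30417582 in GRCm38.p6, the assembly of the RefSeq table used for all positions given here. It read 12.79, 12.66 and 12.74 in R47H mice 1 to 3, 12.66, 12.72 and 12.78 in CV mice, and 12.70, 12.56 and 12.70 in KO mice. The 3 groups overlapped, and KO mouse 2 was the lowest of the 9 arrays. The difference was 0.01 ± 0.07 (SE) in R47H minus CV, 0.08 ± 0.07 in R47H minus KO and 0.07 ± 0.07 in CV minus KO, with limma adjusted p of 0.98, 0.955 and 0.743. The 95% interval of CV minus KO ran from -0.10 to 0.23. As this is bulk RNA of sorted cells, fewer cells of a type and less RNA per cell cannot be told apart, here and for each gene that follows.

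Hcst (probe set 10561920), the adaptor that recruits PI3K and Grb2, lies next to Tyrobp on chromosome 7 at 30417712 to 30419854, with 129 bases between the annotated genes. It read 9.22, 9.01 and 9.39 in R47H mice, 9.19, 9.25 and 8.99 in CV mice, and 9.15, 8.98 and 9.11 in KO mice. The groups overlapped, with the highest value in R47H mouse 3. The difference was 0.07 ± 0.11 in R47H minus CV, 0.13 ± 0.11 in R47H minus KO and 0.06 ± 0.11 in CV minus KO (limma adjusted p = 0.864, 0.95 and 0.863). Despite their position the neighbours did not share 1 order of mice: R47H mouse 1 was the highest for Tyrobp and R47H mouse 3 for Hcst.

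The receptor itself could not be checked from the mouse Trem2 probe set. That probe set read 7.31, 7.26 and 7.28 in R47H mice, 7.19, 7.05 and 7.21 in CV mice, and 7.10, 7.19 and 7.19 in KO mice. The 3 R47H values lay above the 6 others. Which part of the altered mouse gene or of the human transgene the probe set detects is unknown here, so it checks no genotype label. The difference was 0.13 ± 0.07 in R47H minus CV (limma adjusted p = 0.509) and -0.01 ± 0.07 in CV minus KO (adjusted p = 0.955).

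Syk (probe set 10405216, chromosome 13 at 52582610 to 52648792), the kinase that binds the phosphorylated ITAM, read 8.15, 8.14 and 8.11 in R47H mice, 8.06, 8.27 and 8.19 in CV mice, and 8.17, 8.07 and 8.34 in KO mice. The R47H values all lay inside the range of both other groups. Its differences were -0.04 ± 0.09 in R47H minus CV, -0.06 ± 0.09 in R47H minus KO and -0.02 ± 0.09 in CV minus KO (limma adjusted p = 0.898, 0.964 and 0.93).

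Plcg2 (probe set 10575799, chromosome 8 at 117498275 to 117635142) encodes the phospholipase that Syk activates, and coding variants of the human gene are associated with Alzheimer's disease risk. It read 8.52, 8.48 and 8.48 in R47H mice, 8.48, 8.48 and 8.41 in CV mice, and 8.67, 8.44 and 8.48 in KO mice. KO mouse 1 stood above the other 8 arrays, which ran from 8.41 to 8.52. The differences were 0.04 ± 0.07 in R47H minus CV, -0.04 ± 0.07 in R47H minus KO and -0.07 ± 0.07 in CV minus KO (limma adjusted p = 0.873, 0.976 and 0.703).

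Inpp5d (probe set 10348244, chromosome 1 at 87620312 to 87720510) encodes SHIP1, the phosphatase that counteracts PI3K, and the human locus is associated with Alzheimer's disease risk. It read 10.88, 10.99 and 10.87 in R47H mice, 10.76, 10.79 and 10.89 in CV mice, and 11.00, 10.93 and 11.05 in KO mice. All CV values lay below all KO values, and R47H mice overlapped both. The CV minus KO difference was -0.18 ± 0.07, or 0.881-fold, with a 95% interval from -0.35 to -0.02. It had an unadjusted p of 0.0318 and an adjusted p of 0.316 in limma, so it was not called. In this direction 8.05% of all tested genes had groups that did not overlap, so 1 of 9 is near the background. The difference was -0.24 between the females and -0.15 between the 2 males of each group. R47H minus CV was 0.10 ± 0.07 and R47H minus KO -0.08 ± 0.07 (limma adjusted p = 0.605 and 0.95). Leaving out 1 mouse at a time moved CV minus KO between -0.22 and -0.16, with adjusted p from 0.344 to 0.542.

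Other measures were set beside Inpp5d. The summed level of 9 microglial markers (log2) was 14.72 to 14.77 in R47H mice, 14.61 to 14.66 in CV mice and 14.74 to 14.83 in KO mice, an order of groups like that of Inpp5d, and its part in the result was not tested. The summed level of 12 neutrophil markers was 10.68 to 12.49 in R47H mice, 13.51 to 14.23 in CV mice and 9.72 to 14.20 in KO mice. With the mean neutrophil marker level as a covariate the Inpp5d difference was -0.21 ± 0.11 (limma adjusted p = 0.783). The 3 genes outside the 10 whose values followed those of Inpp5d most closely over the 9 arrays were Mtch2, Pde3b and Tmem63a, at Pearson r of 0.948, 0.92 and 0.918. Those were the highest of all tested genes and the arrays share 3 genotypes and 2 sexes, so these values describe likeness only.

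Vav1 (probe set 10446253, chromosome 17 at 57279100 to 57329236) and Vav3 (probe set 10495416, chromosome 3 at 109340465 to 109685694) encode exchange factors that activate the GTPase Rac. Vav1 read 8.97, 8.92 and 9.0 in R47H mice, 9.01, 8.99 and 9.0 in CV mice, and 9.14, 9.0 and 9.02 in KO mice. The groups overlapped, with KO mouse 1 the highest. Its differences were -0.03 ± 0.06 in R47H minus CV, -0.09 ± 0.06 in R47H minus KO and -0.06 ± 0.06 in CV minus KO (limma adjusted p = 0.881, 0.945 and 0.762). Vav3 read 3.87, 3.97 and 3.97 in R47H mice, 3.95, 3.98 and 4.01 in CV mice, and 3.97, 3.79 and 4.20 in KO mice. All 9 values lay below the array median and the groups overlapped. No detection call was used here, so whether Vav3 was expressed is not settled by these values.

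Grb2 (probe set 10392990, chromosome 11 at 115644045 to 115708597) links phosphorylated adaptors to Ras activation. It read 8.19, 8.13 and 8.17 in R47H mice, 8.17, 8.19 and 8.12 in CV mice, and 8.31, 8.13 and 8.23 in KO mice. Its range over the 9 arrays, 0.19, was the smallest of the 10 genes. The differences were 0.00 ± 0.07 in R47H minus CV, -0.06 ± 0.07 in R47H minus KO and -0.07 ± 0.07 in CV minus KO (limma adjusted p = 0.988, 0.962 and 0.725).

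Pik3cd (probe set 10518686, chromosome 4 at 149649168 to 149702566) encodes the delta catalytic subunit of PI3K, found mainly in leukocytes. It read 8.57, 8.57 and 8.60 in R47H mice, 8.60, 8.58 and 8.68 in CV mice, and 8.55, 8.82 and 8.60 in KO mice. KO mouse 2 stood above the other 8 arrays. The differences were -0.04 ± 0.08 in R47H minus CV, -0.08 ± 0.08 in R47H minus KO and -0.04 ± 0.08 in CV minus KO (limma adjusted p = 0.886, 0.955 and 0.872).

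Card9 (probe set 10480956, chromosome 2 at 26352187 to 26360945) encodes the adaptor that joins Syk to Bcl10 and Malt1 and on to NF-kB. It read 6.76, 6.79 and 6.76 in R47H mice, 6.80, 6.57 and 7.04 in CV mice, and 7.03, 6.68 and 6.51 in KO mice. Its 3 R47H values were close together, and the CV and KO mice spread on both sides of them. The differences were -0.03 ± 0.14 in R47H minus CV, 0.03 ± 0.14 in R47H minus KO and 0.06 ± 0.14 in CV minus KO (limma adjusted p = 0.953, 0.994 and 0.896). Its range over all arrays was 0.52, the widest of the 10 genes and wider than that of 68.8% of tested genes. The other 8 tested genes had ranges of 0.19 to 0.41, at the percentiles 7.07 (Grb2) to 49.2 (Hcst) of tested genes.

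**Figure D2:**
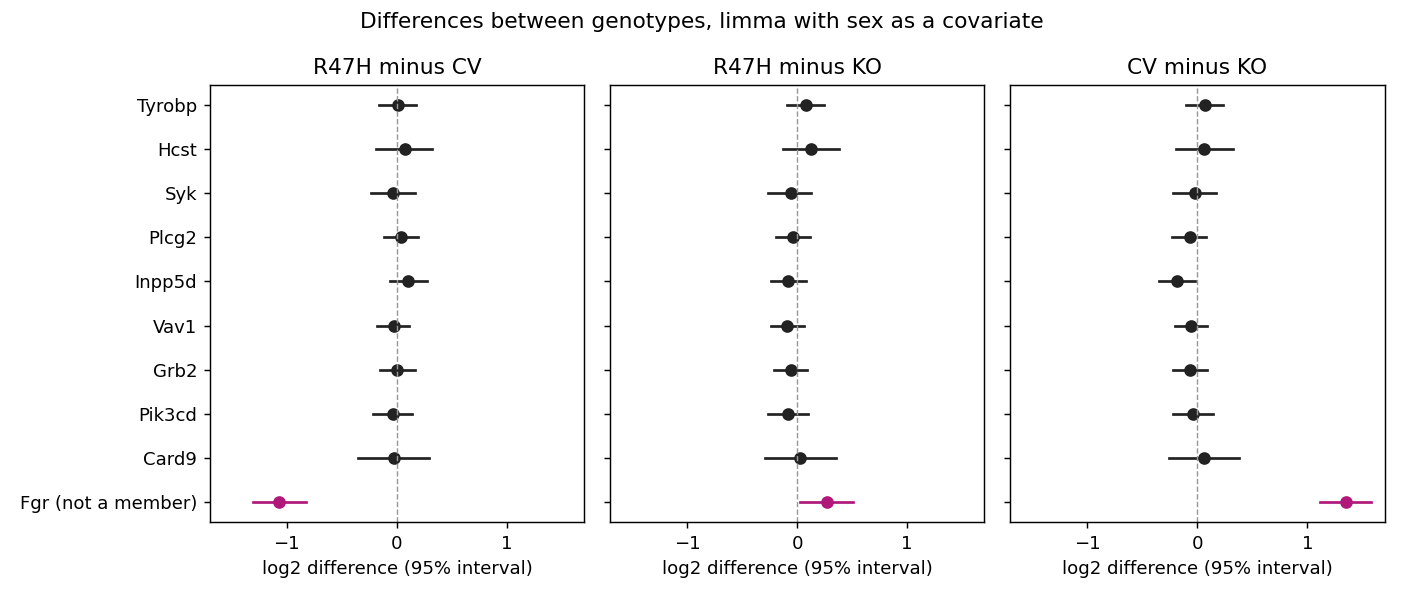
Log2 differences (points) with 95% intervals (lines) from limma for the 9 tested genes and, for scale, the Src family kinase Fgr; the panels show R47H minus CV, R47H minus KO and CV minus KO. All intervals of the 9 genes include 0 except that of Inpp5d in CV minus KO (-0.35 to -0.02), while Fgr stands at -1.07, 0.27 and 1.35.

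**Figure D3:**
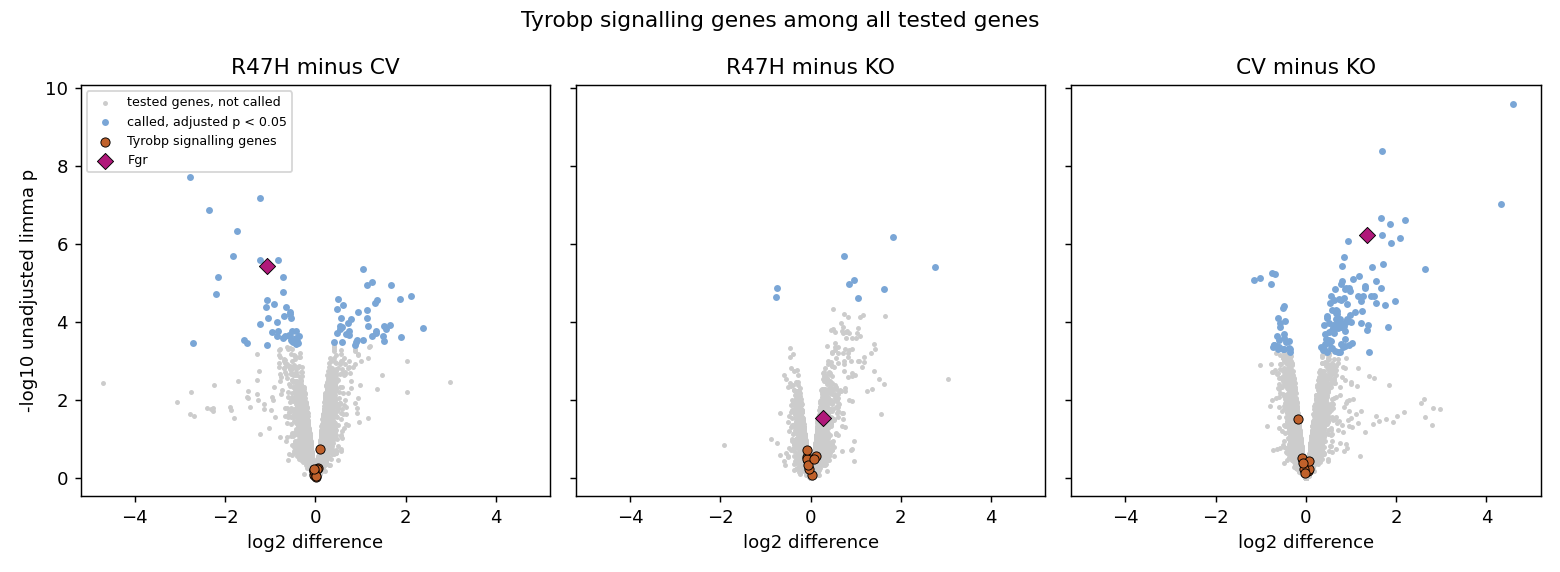
Every tested gene by log2 difference (horizontal) and -log10 of the unadjusted limma p (vertical), with called genes in blue, the 9 tested Tyrobp signalling genes as orange circles and Fgr as a diamond. The orange circles sit near 0 in all 3 panels, with differences of -0.18 to 0.13.

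The wider pathway was described with 121 other genes in 9 lists, of which 105 had a probe set of their own and 96 were tested. In CV minus KO 1 of the 96 was called higher and 0 lower, in R47H minus CV 0 higher and 1 lower, and in R47H minus KO 0. Over all tested genes 1.21%, 0.797% and 0.0834% were called in these comparisons, so 1 of 96 is near the background. At an unadjusted p under 0.05 limma gave 7 higher and 11 lower in CV minus KO, 9 higher and 8 lower in R47H minus CV, and 1 higher and 1 lower in R47H minus KO, where the shares of all tested genes were 13.2%, 12.4% and 5.68%. The median differences of the 96 genes were 0.02 in R47H minus CV, 0.00 in R47H minus KO and -0.01 in CV minus KO, close to those of all tested genes given above.

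The called gene was Fgr (probe set 10508772), a Src family kinase of myeloid cells and one of the kinases able to phosphorylate ITAMs. It read 6.89, 6.62 and 6.44 in R47H mice, 7.99, 7.76 and 7.41 in CV mice, and 6.79, 6.15 and 6.20 in KO mice. All CV mice lay above all others, and R47H and KO mice overlapped. Fgr was 2.54-fold higher in CV than in KO mice (1.35 ± 0.11, limma adjusted p = 0.000814) and lower in R47H than in CV mice by a difference of -1.07 ± 0.11 (adjusted p = 0.00479). R47H minus KO was 0.27 ± 0.11 (adjusted p = 0.796). The 6 other Src and Tec family kinases tested were not called and differed by -0.21 to 0.27 in CV minus KO. Among them Fyn stood at 0.27 ± 0.14 (adjusted p = 0.458).

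Neutrophil markers also lay higher in CV mice than in KO mice 1 and 2. KO mouse 3, whose summed neutrophil marker level of 14.20 was within the CV range of 13.51 to 14.23, read 6.20 for Fgr, against 7.41 to 7.99 in CV mice. With the neutrophil marker level as a covariate the CV minus KO difference of Fgr was 1.36 ± 0.16 (limma adjusted p = 0.0193). For R47H minus CV it was -1.09 ± 0.16 with an adjusted p of 0.109, so that call was lost. It was also lost without a term for sex (-1.07 ± 0.20, adjusted p = 0.0547) and without R47H mouse 1 (-1.03, adjusted p = 0.0602). The summed neutrophil level was 10.68 to 12.49 in R47H mice, all below the CV range. In that comparison the covariate and genotype therefore cannot be fully told apart. In CV minus KO the levels overlap through KO mouse 3 alone, as KO mice 1 and 2 stood at 9.72 and 10.64. The adjusted difference there therefore leans on 1 array, and covariate and genotype are not fully separated there either. The part of neutrophils in the Fgr values was not tested.

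**Figure D4:**
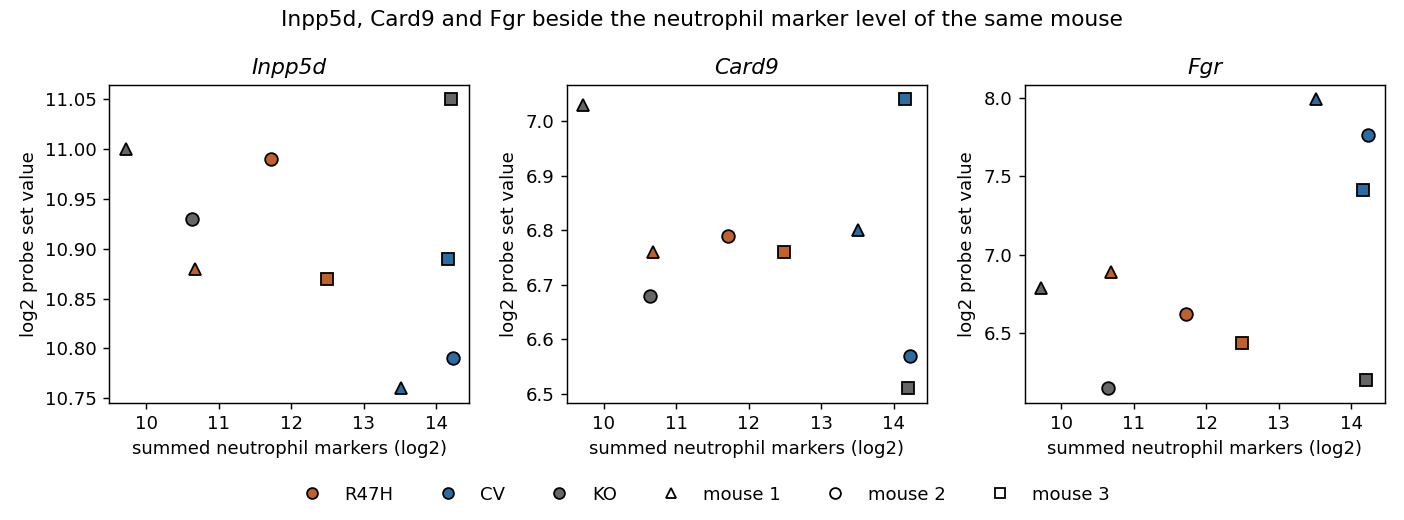
Log2 values of Inpp5d, Card9 and Fgr (vertical) against the summed level of 12 neutrophil markers (log2, horizontal), one point per mouse, coloured by genotype and shaped by mouse number. KO mouse 3 lies among the CV mice on the horizontal axis and at 6.20 for Fgr, below the CV mice at 7.41 to 7.99.

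Receptors that pair with Tyrobp or Hcst, or signal with their help, gave 10 tested genes, 0 of them called in any comparison. In CV minus KO 3 were higher and 3 lower at an unadjusted p under 0.05, which 13.2% of all tested genes passed, with a median of 0.13. With 10 genes, listed with earlier results known, this count is a description. Siglech, a Tyrobp-coupled lectin of microglia, read 11.65, 11.85 and 11.83 in R47H mice, 11.54, 11.55 and 11.50 in CV mice, and 11.90, 11.83 and 11.91 in KO mice. Its CV values lay below those of both other groups (CV minus KO -0.35 ± 0.07, limma adjusted p = 0.0715, and 0.0306 with the trend and robust options). Itgam, which encodes CD11b and was itself used to sort the cells, stood at -0.30 ± 0.06 in the same comparison (adjusted p = 0.0738, and 0.0334 with those options). The other ITAM adaptors included Fcer1g, the Fc receptor gamma chain, which read 12.29 ± 0.06 in R47H, 12.17 ± 0.02 in CV and 12.23 ± 0.07 in KO mice (SD, n = 3 each). Its CV minus KO difference was -0.06 ± 0.06 (adjusted p = 0.753), and that of the T cell receptor subunit Cd3e was -0.06 ± 0.08 (adjusted p = 0.799).

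Among 14 adaptor proteins the lowest p in CV minus KO belonged to Grap, a relative of Grb2, at -0.56 ± 0.15 (limma adjusted p = 0.141), and to the docking protein Gab1 at -0.43 ± 0.13 (adjusted p = 0.211). In the phospholipase, protein kinase C and CARD list of 13 genes, Prkca stood at -0.49 ± 0.10 (adjusted p = 0.0678). Prkca was called with quantile normalization (-0.52, adjusted p = 0.049). Malt1, the protease partner of Card9 and Bcl10, stood at 0.32 ± 0.08 (adjusted p = 0.124). Neither list held a called gene.

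In the PI3K and Akt list of 13 genes the median difference in CV minus KO was -0.10, with Akt2 at -0.22 ± 0.08 (limma adjusted p = 0.305) and the kinase Pdpk1 at 0.18 ± 0.08 (adjusted p = 0.403). Of 17 phosphatases and inhibitors 10 lay above 0, among them Ptprc, which encodes CD45, the other marker of the sort, at 0.32 ± 0.09 (adjusted p = 0.151). Sh2b3 stood at -0.23 ± 0.11 (adjusted p = 0.401). The 6 genes of the Ras and MAP kinase list ran from -0.18 (Map2k1) to 0.07, with Map2k2 at -0.08 ± 0.07 (adjusted p = 0.682). None of these 3 lists held a called gene in any comparison.

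**Figure D5:**
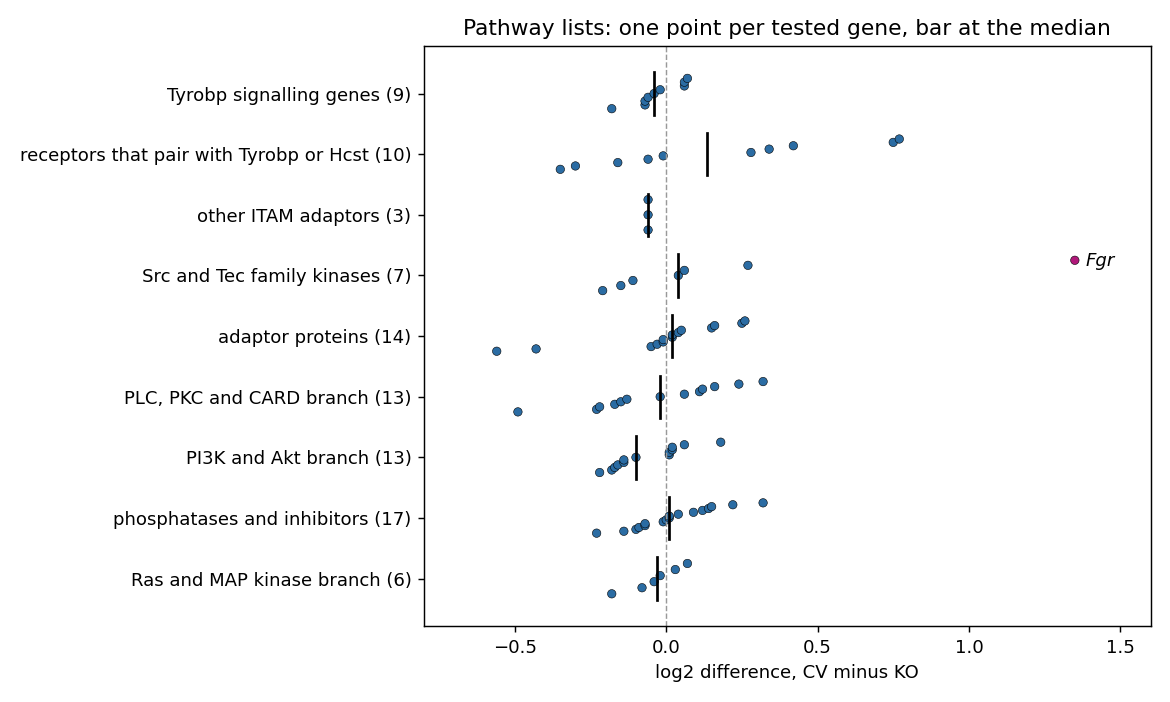
Log2 differences in CV minus KO for each tested gene of the Tyrobp signalling genes and 8 of the 9 pathway lists, with the number tested in brackets and a bar at each median; called genes are magenta. Fgr, at 1.35, is the called gene, and the medians of the lists shown run from -0.10 to 0.13.

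Promoters are shown as the regulatory sequence nearest to these genes' starts, and 9 of the 10 genes, all but Tyrobp, matched the RefSeq promoter table of GRCm38.p6. The letters AGGAAGT were chosen after the sequences had been seen. They contain GGAA, the core read by ETS family factors such as PU.1, a regulator of macrophage genes. AGGAAGT or its reverse complement ACTTCCT stood in the 250 bases before an annotated start in 6 of 9 genes (Hcst, Inpp5d, Vav1, Vav3, Grb2 and Card9), against 8.80% of 27025 genes in the table. In the last 60 bases before a start they stood in 5 of 9, against 2.81%. Because the letters were picked from these sequences, the higher share among the 9 genes follows from the choice and carries no weight. Those 5 stretches are shown with the matches in capitals, 5′ to 3′ on the strand of the gene and ending 1 base before the start. Inpp5d is at chr1:87620252-87620311 (plus strand), Vav1 at chr17:57279040-57279099 (plus), Hcst at chr7:30419855-30419914 (minus), Card9 at chr2:26360910-26360969 (minus) and Grb2 at chr11:115699535-115699594 (minus). For Card9 and Grb2 the start used lies inside the gene's annotated span.
Inpp5d: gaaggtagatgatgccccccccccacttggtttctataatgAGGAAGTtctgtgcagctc
Vav1: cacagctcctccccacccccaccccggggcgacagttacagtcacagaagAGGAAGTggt
Hcst: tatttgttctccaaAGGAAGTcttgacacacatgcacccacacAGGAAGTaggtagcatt
Card9: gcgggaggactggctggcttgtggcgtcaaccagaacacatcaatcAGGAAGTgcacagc
Grb2: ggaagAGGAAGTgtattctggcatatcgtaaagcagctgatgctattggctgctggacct
The last matching base lay 4 bases before the start in Vav1, 8 in Card9, 13 in Inpp5d and 49 in Grb2, and Hcst held 2 matches, at 11 and 40 bases. A match describes these letters and is not a binding site shown by these data. Of the 5 genes, Inpp5d alone had CV and KO groups that did not overlap.

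The sorted cells carried microglial markers on all 9 arrays. Cx3cr1 lay at 12.24 to 12.43, Tmem119 at 11.52 to 12.01 and P2ry12 at 10.83 to 11.38. Of 10 T and NK cell markers, among them Cd3d, Cd3g, Nkg7 and Ncr1, 0 had a mean above the array median. The T cell receptor subunits Cd3e and Cd247, listed here among the ITAM adaptors, lay slightly above it. Cd3e had means of 5.53 in R47H, 5.46 in CV and 5.52 in KO mice, and Cd247 of 5.64, 5.52 and 5.58. Of 6 B cell markers 3 did, while the defining markers Cd79a and Ms4a1 did not, and the summed B cell level was 8.70 to 9.12 in R47H mice, 8.62 to 8.98 in CV mice and 8.71 to 9.24 in KO mice. Neutrophil markers reached 12.83 (S100a8), with the group ranges given above, and 9 of 12 had means above the array median. Oligodendrocyte markers were highest in R47H mice, with a summed level of 9.78 to 10.26, against 8.61 to 8.89 in CV mice and 8.61 to 9.42 in KO mice. Astrocyte markers were also highest in R47H mice, at 9.50 to 9.75, against 8.68 to 8.83 in CV mice and 8.79 to 9.24 in KO mice. Of the 7 astrocyte markers 4 had means at or above the array median. The defining marker Slc1a2 was above it, at 5.36, while Gfap, at 5.01, and Aqp4, at 4.47, were below. The part of these cell types in the values of the 10 genes was not tested. Monocyte markers had a summed level of 9.14 to 9.50 in R47H mice, 10.26 to 11.06 in CV mice and 9.26 to 10.74 in KO mice.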

How the data were processed

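The table the authors deposited holds log2 values of 35556 probe sets on each array, with array medians of 5.28 to 5.35. The scale was read from the values, and the sources used here do not give the background correction or normalization. The platform annotation supplied gene names, and genes were represented by the highest-mean probe set with a single symbol. Testing was limited to the 10795 genes with a mean of at least 5.31, the probe set median. Linear models (limma 3.58.1, R 4.3.3, lmFit and eBayes) had terms for genotype and sex over all 9 arrays, with 5 residual and 3.73 prior degrees of freedom. Tests were two-sided, and SE and 95% intervals come from the model. With 3 mice against 3 an exact permutation test cannot go below 0.1, so none was used. The code of the model was checked on simulated data with independent noise. That check does not tell whether differences as small as those of the 10 genes would be called. The 10 genes, pathway lists and alternatives were chosen with earlier results of these data known. Genes named from a list were those called in any comparison and the 2 with the lowest p in CV minus KO. Trem2, defining cell type markers and the 3 genes most like Inpp5d were named as well. The neutrophil covariate was the mean deviation of the 9 tested neutrophil markers. Precision is limited by 3 arrays a group, with a median residual SD of 0.12. The genes of 1 pathway list are not reported here on their own.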

Additional observations from a re-analysis of the deposited data

How the results depend on the processing

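The count of 0 called among the 9 tested genes held in all 3 comparisons under every alternative run, including each omission of 1 mouse, with lowest adjusted p from 0.243 (CV minus KO, quantile normalization) upwards. Each of the 10 genes had 1 probe set, so no other probe set could be tried. The counts over all genes, used as background, moved more. In R47H minus CV the 86 calls were 48 without the filter and 9 with the neutrophil covariate. In R47H minus KO the 9 calls were 3 without sex, 15 with trend and robust options, 15 with the neutrophil covariate and 1 with the compared groups alone. In CV minus KO the 131 calls were 77 without sex, 22 with the neutrophil covariate and 54 with the compared groups alone. Leaving out 1 mouse gave 9 to 132 calls in R47H minus CV (9, 37 and 24 without R47H mice 1 to 3, 15, 23 and 9 without CV mice 1 to 3, 132 without KO mouse 3). It gave 0 to 7 in R47H minus KO (1, 3 and 0 without R47H mice 1 to 3, the 0 with 534 at an unadjusted p under 0.05 in limma, 1, 5 and 2 without KO mice 1 to 3, 5 without CV mouse 3). It gave 59 to 172 in CV minus KO (59, 70 and 67 without CV mice 1 to 3, 74 and 75 without KO mice 1 and 2). With mouse number as a replicate block in place of sex the calls were 83, 11 and 136. Deviations of same-numbered mice correlated above 0.1 in 7 of 9 pairs (-0.0401 to 0.362), and 12 of 18 comparisons were highest with the own number. Sex was not removed from these deviations, and the pairs of mouse 1, the females, were the highest (0.319 to 0.362). Among the males, pairs of mouse 2 stood at 0.196, 0.000942 and -0.0401 and pairs of mouse 3 at 0.147 to 0.213. KO mouse 3 also correlated with R47H mouse 2 (0.203) and CV mouse 2 (0.214). Same-numbered mice were thus often alike, but likeness by number and by sex was not separated, so this is a weak hint. As not every pair exceeded 0.1 and the labels state no shared litter or day, the block was kept as an alternative. It changed no call among the 10 genes. Prkca passed with the block in CV minus KO (-0.49, adjusted p = 0.0498).

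Signs of small differences turned. With the neutrophil covariate Syk stood at 0.10 in R47H minus CV, and Hcst at -0.04 and Pik3cd at 0.05 in CV minus KO. Over omissions of 1 mouse R47H minus CV ran from -0.05 to 0.04 for Tyrobp, -0.05 to 0.16 for Hcst, -0.09 to 0.00 for Syk, -0.02 to 0.03 for Grb2 and -0.13 to 0.12 for Card9. R47H minus KO ran from -0.14 to 0.01 for Syk, -0.07 to 0.02 for Plcg2 and -0.07 to 0.18 for Card9. CV minus KO ran from -0.01 to 0.13 for Hcst, -0.10 to 0.05 for Syk, -0.09 to 0.04 for Pik3cd, -0.09 to 0.21 for Card9 and -0.11 to 0.00 for Cd3e. None of these differences was called. The cause of these changes, and of the changed counts of calls, was not tested.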

Other observations

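The spread between mice within each genotype was described for these genes. The median SD of the 9 tested genes was 0.03 in R47H mice, 0.06 in CV mice and 0.09 in KO mice, against medians over all tested genes of 0.10, 0.10 and 0.12. The smallest of the 3 SDs belonged to R47H mice for 5 of 9 genes, where 36.0% of all genes had it there. With only 9 genes this count is not far from that share. Card9 had SDs of 0.02 in R47H, 0.23 in CV and 0.27 in KO mice. These are descriptions of 3 mice each, and no test of the spreads was made.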
